A study of Homo sapiens with 4 samples.

Results

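The response of TET1-depleted FaDu cells to hypoxia was described from the H-si library (hypoxia, TET1-si) against the N-si library (normoxia, TET1-si), gene by gene. FaDu is an established epithelial line derived from a squamous tumour of the lower throat. A gene was taken when its identifier stood on only 1 row of the expression table, its locus spanned at least 300 bp and its mean FPKM over the 4 libraries of the series was at least 1. These criteria left 14585 of the 62077 rows. FPKM is a fragment number scaled by the length of a gene's exons and by the depth of the library. Its sum differs between libraries, so comparisons between libraries depend on the scaling, as given below. At the threshold, RP5-827C21.4 was just inside (FPKM 1.13 in normoxic and 1.84 in hypoxic TET1-si cells) and AC005355.2, with a mean of 0.998, was just outside.

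All cells carried a lentiviral pLKO.1-puro hairpin vector, against TET1 in the TET1-si cells and scrambled in the control cells, and were in culture for some days after infection. The hypoxic cells were kept for 19 h at 1% O2 and 5% CO2, and the normoxic cells in air with 5% CO2. The remaining libraries, N-scr and H-scr, are the scrambled control in normoxia and hypoxia, and the response between them is given beside that of the TET1-si cells. The responses of the TET1-si and scrambled cells share no library. Where 4 levels stand in a row, the order is scrambled normoxia, scrambled hypoxia, TET1-si normoxia, TET1-si hypoxia. The study refers to the infected cells as clones, and whether the TET1-si cells descend from a single cell is not given in the sources used here.

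Each group had 1 library, so no difference below has a replicate check and none was tested. Changes are given as log2(FPKM + 0.1) in hypoxia less the same in normoxia, which understates the change of genes with a low level, and a gene is called higher or lower when this change reaches 1 in size, which is 2-fold. Ratios of FPKM carry 95% counting intervals from recovered read numbers (exact, Clopper-Pearson). The intervals cover counting error only and not the spread between cultures.

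Cells short of oxygen stabilise the hypoxia-inducible factors HIF-1 and HIF-2, since the prolyl hydroxylases that mark them for destruction need oxygen. The factors bind DNA with their partner ARNT and raise genes for glucose uptake, glycolysis, pH control, blood vessel growth, collagen modification and mitophagy, together with genes that restrain the response itself. Prolonged hypoxia also slows costly processes, among them DNA replication, ribosome production and protein synthesis. TET1 is a dioxygenase that oxidises 5-methylcytosine in DNA and, like the prolyl hydroxylases, uses oxygen as a substrate.

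The hairpin against TET1 is shown because it defines these cells. It has a target of 21 bases, and the only annotated transcript holding that run is the canonical one of TET1. The site lies in the 3′ UTR, in exon 12 of 12 (ENST00000373644), at chr10:70451833-70451853 of hg19, plus strand.
TET1 hairpin target: ccttgatagaatcactcagtt

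TET1 (ENSG00000138336) was too low to pass the filter. Its FPKM was 0.129, 0.331, 0.0493 and 0.122, about 28, 76, 11 and 26 reads. The level was lower in both TET1-si libraries than in the scrambled library at the same oxygen. Within TET1-si cells it was 2.48-fold higher in hypoxia (interval 1.24 to 5.84).

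The recovered depth lay between 22400000 reads (H-si) and 24700000 (N-si). The cells were checked against 12 epithelial markers, squamous ones and broader ones such as CDH1, KRT8, KRT18 and EPCAM. All 12 passed the filter on the mean of the 4 libraries. Among them were TP63, a squamous lineage regulator (FPKM 50.7, 54.8, 42.1 and 53.4), and the basal keratin KRT5 (2673, 3992, 524 and 1430). KRT14 (42.1, 99.9, 0.487 and 1.41) and KRT6A (67.7, 109, 0.394 and 0.357) were at or near 0 in both TET1-si libraries. These 2 passed through the scrambled libraries. The stem cell factor SOX2 was low in TET1-si cells (12.0, 6.195, 1.35 and 1.59). The TET1-si and scrambled cultures were therefore already unlike in normoxia in these markers, with summed levels of the 12 markers of 7663, 10472, 2683 and 4726. The part of this difference in the results below was not tested. In bulk RNA, fewer cells of a type and less RNA per cell cannot be told apart. Of other cell types, 1 of 8 fibroblast markers passed the filter (COL1A1), with COL1A2, LUM and PDGFRA listed at 0 in all 4 libraries. For endothelium 2 of 6 passed (CDH5 and VWF), and for immune cells 2 of 8 (CD14 and CD68), with CD3E, CD3D and MS4A1 listed at 0 in all 4 libraries.

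Hypoxia in TET1-si cells was accompanied by higher levels of 1740 genes (11.9% of those tested) and lower levels of 1195 (8.19%). For 1537 of the 1589 higher genes with recovered reads, and 1115 of the 1139 lower ones, the counting interval of the ratio left out 1. Changes of at least 4-fold were found in 324 genes that were higher and 159 that were lower. In scrambled cells 1824 genes were higher (12.5%) and 562 lower (3.85%), with 447 and 35 at 4-fold. The counts of higher genes were thus close, while more than 2 times as many genes were lower in TET1-si as in scrambled cells. The split depended on how libraries were brought to a common scale. The deposited FPKM gave 59.3% higher genes among those called, but rescaling to TPM gave 2206 higher and 947 lower genes (70.0% higher) and upper-quartile scaling 2096 and 975 (68.3%). The median change over all genes was 0.03 in the deposited values and became 0.16 and 0.14 under these scalings, so changes below that size have no fixed sign. The deposited columns summed to 723659 FPKM in H-si and 795537 in N-si.

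**Figure D1:**
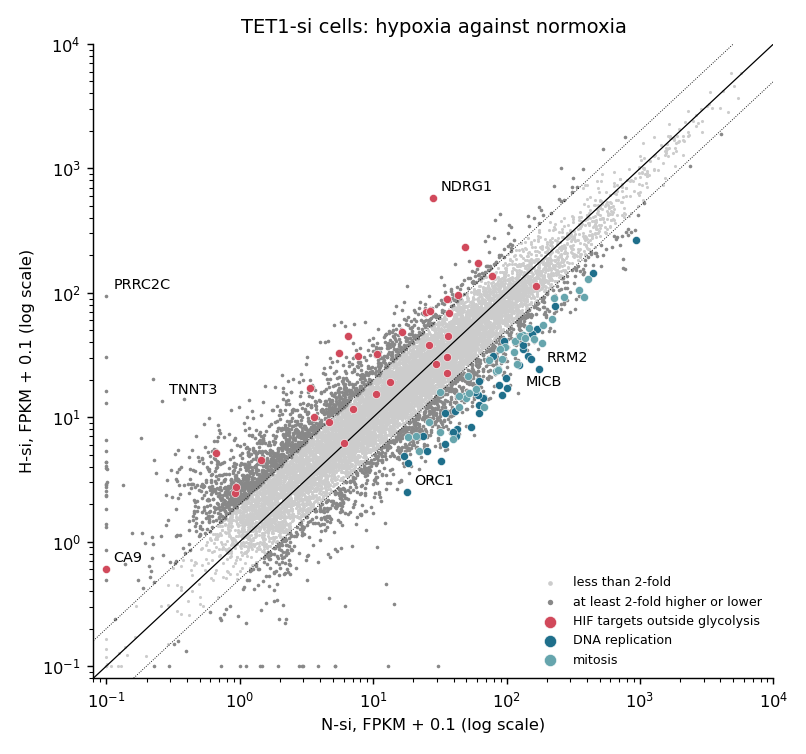
FPKM + 0.1 in N-si (horizontal) and H-si (vertical), both on log scales, for the 14585 genes. Dotted lines mark 2-fold, points on the left or bottom edge are listed at 0 in a library, and the DNA replication and mitosis genes (blue) lie below the diagonal while most HIF targets (red) lie above it.

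The level of a gene went with the direction of its change. Among 4133 genes with a mean FPKM of 1 to 5, 24.4% were higher in H-si and 6.46% lower. Among 1306 genes at 100 and above, 4.52% were higher and 11.4% lower, with a median change of -0.30. Scrambled cells had a like share of higher genes in each class, 23.8% and 3.98% at these ends, but a smaller share of lower genes, 4.57% and 3.14%. By gene type, 1692 long noncoding genes had a median change of 0.37 (21.5% higher, 6.21% lower) and 464 pseudogenes one of 0.39 (22.0% and 4.53%), against -0.02 in 11901 protein-coding genes (9.95% and 8.66%). By chromosome, medians over protein-coding genes ran from -0.09 on chromosome 5 to 0.06 on chromosome 17, shares of higher genes from 3.92% on chromosome 18 to 12.2% on chromosome 21, and shares of lower genes from 5.74% on chromosome 19 to 14.9% on chromosome 13.

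**Figure D2:**
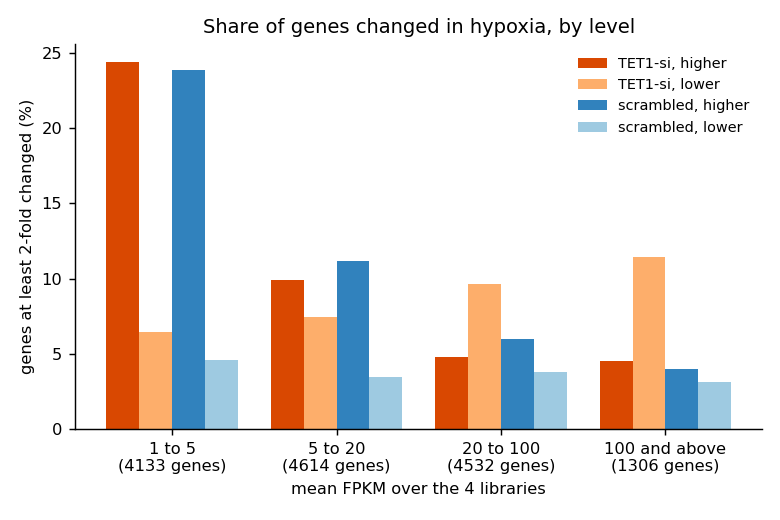
Share of genes at least 2-fold higher or lower in hypoxia (percent, vertical) in 4 classes of mean FPKM (horizontal), for TET1-si and scrambled cells. Bars of lower genes grow with level in TET1-si cells, from 6.46% to 11.4%, and stay between 3.14% and 4.57% in scrambled cells.

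Genes of the HIF response were higher in hypoxic TET1-si cells. Of 32 tested HIF targets outside glycolysis 19 were higher and 0 lower, where 11.9% and 8.19% of all tested genes were. The median change of the 32 was 1.43, against 0.03 over all genes. CA9 is among the 19, though it was listed at 0 in N-si and stayed below an FPKM of 1 in H-si. It passed the filter through the scrambled libraries. In scrambled cells 22 of the 32 were higher and 0 lower, with a median of 1.52, and 26 of the 32 changes were smaller in TET1-si than in scrambled cells. The largest member was NDRG1, a stress-induced regulator of differentiation and a classical hypoxia marker. Its FPKM went from 28.04 to 579 in TET1-si cells, a ratio of 20.6 (interval 19.7 to 21.6), and from 15.9 to 497 in scrambled cells, a ratio of 31.2 (29.3 to 33.2). Both hypoxic libraries were far above both normoxic ones.

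The factors that sense oxygen and feed back on HIF gave 4 higher genes of 10 tested and none lower. EGLN3, a prolyl hydroxylase that HIF itself induces, went from 5.68 to 57.9 in TET1-si cells and from 2.62 to 62.9 in scrambled cells. The ratio was 10.2 (9.12 to 11.4) in the former and 24.1 (20.5 to 28.6) in the latter, where the normoxic level was lower. The locus of SPTSSA overlaps that of EGLN3 and changed by 0.12. The constitutive hydroxylase EGLN2 and the ubiquitin ligase subunit VHL had changes of 0.01 and 0.08 in TET1-si cells. CITED2, which competes with HIF for its co-activators, went from 14.2 to 43.7 (3.08-fold, 2.84 to 3.36) in TET1-si cells and from 12.8 to 33.4 in scrambled cells. EPAS1, which encodes HIF-2α, went from 26.8 to 62.4 (2.33-fold, 2.23 to 2.43) in TET1-si and from 13.3 to 21.7 (1.63-fold, 1.53 to 1.74) in scrambled cells. BHLHE40, a transcriptional repressor, went from 38.4 to 78.5 and from 40.7 to 140. EPAS1 and CITED2 were the 2 of the 10 with a larger change in TET1-si than in scrambled cells, and that difference was not tested.

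Among the targets, genes of several branches were higher. DDIT4, an inhibitor of mTORC1, went from 48.9 to 233 in TET1-si cells and from 119 to 352 in scrambled cells. BNIP3 and BNIP3L, receptors that direct mitochondria to autophagy, went from 24.97 to 70.1 and from 26.3 to 71.2 in TET1-si cells, and from 11.5 to 69.2 and from 20.7 to 101 in scrambled cells. Their ratios were 2.81 (2.59 to 3.05) and 2.71 (2.57 to 2.85) in TET1-si cells, and 5.99 and 4.91 in scrambled cells. The collagen-modifying enzymes P4HA1 (16.3 to 48.4), PLOD2 (43.3 to 95.8) and LOXL2 (61.2 to 173) were all higher in H-si, while P4HA2 had a change of 0.54. The histone demethylases KDM3A (35.9 to 89.1) and KDM5B (10.6 to 31.9) were higher as well, 2.48-fold (2.39 to 2.58) and 3.02-fold (2.88 to 3.16). The creatine transporter SLC6A8 went from 5.39 to 32.7 (6.06-fold) and YPEL3, a growth-suppressing gene, from 6.41 to 44.5 (6.95-fold, 6.02 to 8.04), against 3.84 to 26.7 and 1.15 to 22.7 in scrambled cells. VEGFA, the main angiogenic growth factor, went from 77.9 to 136 and had a change of 0.80, short of the 2-fold line, against 80.2 to 172 and 1.10 in scrambled cells. The lowest change was that of STC2 (35.4 to 22.5, change -0.65), and CA9, the membrane carbonic anhydrase that HIF-1 induces, reached only 0.506 in H-si against 7.82 in H-scr.

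**Figure D3:**
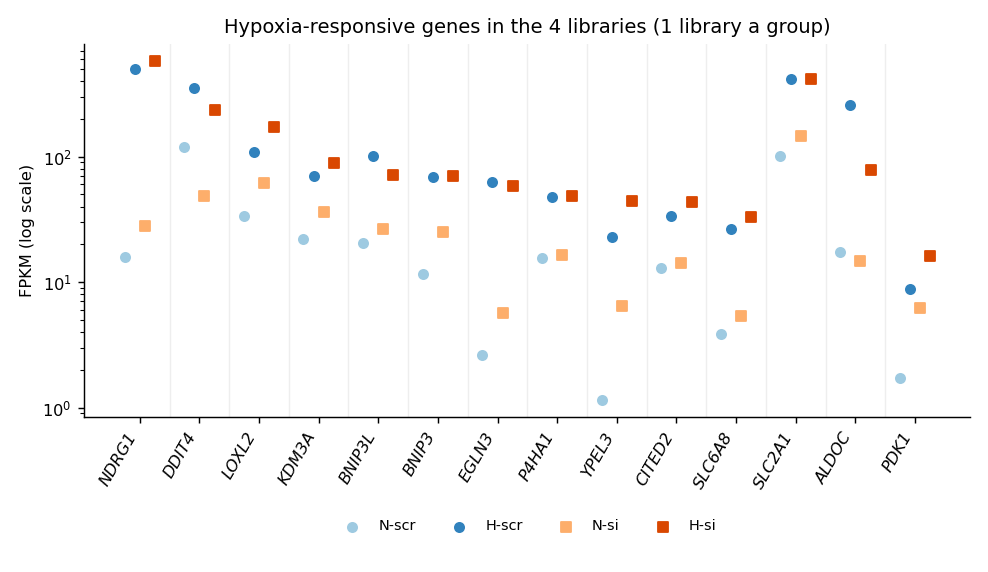
FPKM (vertical, log scale) of 14 hypoxia-responsive genes (horizontal) in N-scr, H-scr, N-si and H-si, 1 library each. The genes were picked by name as ones higher in hypoxia, so the hypoxic library lies above the normoxic library of the same cells by choice. NDRG1 reaches 579 in H-si. Of the 32 tested HIF targets outside glycolysis, 4 had a change below 0 in TET1-si cells, and none of these is drawn.

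The promoters of HIF targets are shown because the HIF core string, ACGTG or GCGTG on either strand, can be read in them. A window of 300 bases was taken for each gene, 250 before and 50 from the annotated start (canonical transcript, GENCODE v44lift37, sequence of GRCh37/hg19), and 13952 of the tested genes (95.7%) had one. The string stood in 25 of 31 windows of HIF targets (80.6%) and in 21 of 23 of glycolysis genes (91.3%), against 64.8% of 11845 tested protein-coding genes. Base composition moved with this, as the mean GC content was 68.3%, 71.5% and 65.9% in that order. Protein-coding genes that were higher in H-si held the string in 53.2% of windows and those that were lower in 70.3%. BNIP3 and PLOD2 are printed as the higher targets with the most matches (6 and 3, with matches allowed to overlap), in capitals.
BNIP3, chr10:133795378-133795677, minus strand: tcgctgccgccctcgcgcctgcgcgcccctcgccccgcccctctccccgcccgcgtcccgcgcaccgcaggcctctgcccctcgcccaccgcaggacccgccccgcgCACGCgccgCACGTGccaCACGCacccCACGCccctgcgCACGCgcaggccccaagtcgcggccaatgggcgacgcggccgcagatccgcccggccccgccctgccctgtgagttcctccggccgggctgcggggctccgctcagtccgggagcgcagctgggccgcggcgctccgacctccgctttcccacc
PLOD2, chr3:145878922-145879221, minus strand: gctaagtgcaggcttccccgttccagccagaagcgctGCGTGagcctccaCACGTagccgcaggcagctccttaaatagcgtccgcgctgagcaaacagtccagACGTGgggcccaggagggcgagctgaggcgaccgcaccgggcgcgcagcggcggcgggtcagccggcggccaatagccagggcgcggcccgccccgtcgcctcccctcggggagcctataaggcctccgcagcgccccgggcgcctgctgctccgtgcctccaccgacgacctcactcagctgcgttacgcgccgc

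Glycolysis genes were split. Of 23 tested, 5 were higher and 0 lower in TET1-si cells with a median change of 0.22, and 7 were higher with a median of 0.72 in scrambled cells. The 5 were the glucose transporters SLC2A1 and SLC2A3, the aldolase ALDOC, the pyruvate dehydrogenase kinase PDK1, which keeps pyruvate out of mitochondria, and the phosphofructokinase regulator PFKFB4. SLC2A1 went from 145 to 415 in TET1-si and from 101 to 418 in scrambled cells, so that the hypoxic levels nearly met. ALDOC was 17.3, 257, 14.7 and 78.2, 5.31-fold higher (4.82 to 5.85) in TET1-si and 14.8-fold (13.6 to 16.2) in scrambled cells. SLC2A3 was 1.07, 7.24, 0.126 and 4.47, and its ratio of 35.4 in TET1-si cells (20.04 to 73.3) rests on about 11 reads in N-si. The most abundant enzymes of the pathway did not reach 2-fold in TET1-si cells and went in both directions. GAPDH, with the highest mean FPKM, went from 3302 to 3277 (a ratio of 0.992, interval 0.983 to 1.002), and the aldolase ALDOA from 1275 to 1785 (1.40-fold, 1.38 to 1.42), against 1661 to 2923 in scrambled cells. PGK1 went from 350 to 403 (1.15-fold, 1.14 to 1.17), LDHA from 704 to 820 (1.16-fold, 1.15 to 1.18) and PKM from 1262 to 1251, where scrambled cells went from 393 to 709, 887 to 1370 and 1622 to 2023. The less abundant hexokinase HK1 went from 52.3 to 58.9, against 36.3 to 59.9. PKM, at -0.01, turned to a small positive change under TPM and upper-quartile scaling. ENO1, which makes phosphoenolpyruvate, had the lowest change of the list at -0.55 (1112 to 758, a ratio of 0.682, interval 0.672 to 0.693), against 0.04 in scrambled cells.

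Among the 9568 protein-coding genes whose TET1-si libraries averaged an FPKM of 5 or more, the largest relative changes included those of genes close to 0 in normoxia, which reached this average through their hypoxic level, and that of NDRG1, given above. TNNT3, a troponin of fast skeletal muscle, went from 0.161 to 13.4 on about 3 and 257 reads (83.5-fold, 32.0 to 461). COX6B2, a subunit of cytochrome c oxidase normally found in testis, went from 0.282 to 13.9 (49.4-fold, 27.0 to 114). In scrambled cells TNNT3 stood at 0.492 and 9.14 and COX6B2 at 0.172 and 6.81, so both were higher in hypoxia there too. PRRC2C was listed at 0 in normoxic and at 93.9 in hypoxic TET1-si cells, with 72.1 and 50.7 in scrambled cells. Its 0 may be a failed estimate, since the gene was abundant in the other 3 libraries, and no fold is given for it. S100A4, a calcium-binding protein of motile cells, went from 1.45 to 17.8 (12.3-fold, 6.49 to 24.7), and in scrambled cells from 2.61 to 24.5.

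Other genes of this group were expressed at moderate levels in hypoxia. CLIC3, an intracellular chloride channel, went from 5.00 to 54.8 (10.97-fold, 8.59 to 14.1) and in scrambled cells from 0.927 to 16.1. CLEC7A, the beta-glucan receptor dectin-1, went from 4.22 to 40.4 and in scrambled cells from 0.530 to 7.72. ALPP, the placental alkaline phosphatase, went from 1.96 to 21.8 in TET1-si cells, 11.1-fold (9.25 to 13.5), but only from 0.502 to 0.956 in scrambled cells. ALPP has close copies in the genome, so reads may be split between them. BNIPL was 0.894 and 12.0 in TET1-si cells (13.5-fold, 9.90 to 18.6) against 0.622 and 1.25 in scrambled cells. FOLR1, a folate receptor, PALM3, the lipase CEL, the lipocalin APOD and the phospholipase PLD1 were between 8.81- and 9.90-fold higher. Among genes averaging 100 or more the largest were NDRG1, the motor scaffold MAPK8IP3 (89.5 to 429, 4.79-fold, 4.70 to 4.89), DDIT4, SYT8 (81.6 to 383) and the water and glycerol channel AQP3 (40.8 to 171). Of these, MAPK8IP3, SYT8 and AQP3 went from 67.5 to 203, 153 to 301 and 39.0 to 87.1 in scrambled cells.

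DNA replication genes were lower in hypoxic TET1-si cells without exception. All 36 tested genes of the list were at least 2-fold lower in H-si than in N-si, with changes from -2.85 (MCM10) to -1.22 (POLE) and a median of -2.23. In scrambled cells 4 of the 36 were at least 2-fold lower, the median was -0.69 and all 36 were below 0. H-si was the lowest of the 4 libraries for all 36 genes. The median log2 difference between TET1-si and scrambled cells was 0.00 in normoxia, with members on both sides (TK1 higher and ORC1 lower in N-si), and -1.45 in hypoxia. The summed FPKM of the list was 4294, 2847, 4145 and 1084.

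Each step of replication was represented. ORC1 and CDC6, which load the helicase on origins in G1, were 29.0, 14.1, 17.8 and 2.39, and 92.8, 69.6, 92.0 and 14.9. For both, H-si was far below each of the other 3 libraries. The H-si level was 7.45-fold lower than N-si for ORC1 (6.29 to 8.83) and 6.19-fold for CDC6 (5.86 to 6.55), against 2.06-fold and 1.33-fold in scrambled cells. The helicase subunits MCM2 to MCM7 had changes from -2.56 (MCM2) to -1.73 (MCM7), and the most abundant, MCM4, was 975, 643, 937 and 265 (3.54-fold lower in TET1-si, 3.49 to 3.59). GINS2, part of the active helicase, was 48.4, 25.5, 54.1 and 8.23 (its locus overlaps GSE1, at 38.1 and 53.7 in TET1-si cells), and the other members GINS1, GINS3 and GINS4 changed by -1.75, -2.26 and -2.53. RRM2, the regulated subunit of ribonucleotide reductase, which makes deoxynucleotides, was 138, 75.5, 175 and 24.2, 7.25-fold lower in TET1-si (6.89 to 7.63) and 1.82-fold in scrambled cells (1.76 to 1.88). The sliding clamp PCNA was 196, 125, 154 and 46.2, and the thymidine kinase TK1 246, 185, 447 and 145. DNMT1 and UHRF1, which copy DNA methylation onto the new strand, changed by -1.56 and -2.30.

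Mitosis genes followed the same course. All 38 were at least 2-fold lower, from -2.58 (SPC25, of the kinetochore) to -1.01 (ASPM, of the spindle pole), with a median of -1.72, and H-si was the lowest library for all 38. In scrambled cells 4 of 38 were lower and the median was -0.72. CDK1, the kinase that starts mitosis, went from 382 to 93.3 in TET1-si cells, 4.09-fold lower (3.94 to 4.24), and from 255 to 145 in scrambled cells. Its partner CCNB1 was 462, 248, 407 and 129, and the proliferation marker MKI67 63.6, 49.4, 51.9 and 15.5. BIRC5, the survivin of the chromosomal passenger complex, was 121, 71.4, 185 and 39.5 (4.69-fold lower, 4.47 to 4.91). For each of these the normoxic libraries stood above the hypoxic ones and H-si below H-scr.

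Repair and G1 genes were lower with them. Of 22 homologous recombination and Fanconi anaemia genes 19 were lower (median -1.88) against 5 in scrambled cells (median -0.72). The helicase BLM went from 24.2 to 4.36, while PALB2 and RBBP8 had changes of -0.24 and -0.46. Of 17 G1 cyclin and E2F genes 9 were lower (median -1.35) against 2 in scrambled cells (median -0.46). E2F1, which drives entry into S phase, was 33.7, 24.8, 34.8 and 8.45 (4.12-fold lower in TET1-si, 3.72 to 4.56, and 1.36-fold in scrambled cells). CCNE2, cyclin E2, was lower in hypoxia only in TET1-si cells (28.8 to 8.89) and nearly level in scrambled cells (13.8 to 14.0). CDK4 went from 190 to 67.7, whereas CCND1, the cyclin D1 gene, went from 467 to 323 and did not reach 2-fold.

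**Figure D4:**
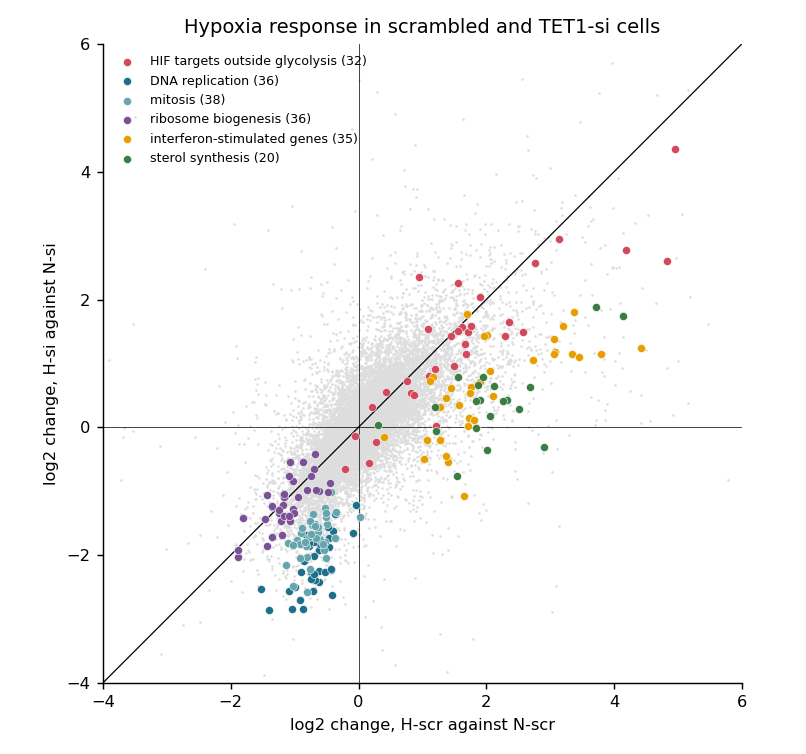
Log2 change in hypoxia of each gene in scrambled cells (horizontal) and TET1-si cells (vertical), with 6 gene lists in colour, the line of equal change drawn, and 28 genes outside the frame. Replication and mitosis genes form a cloud below the line, with medians of -2.23 and -1.72 in TET1-si against -0.69 and -0.72 in scrambled cells, most sterol and interferon genes also lie below it, and HIF targets lie nearer to it but mostly below, 26 of 32 with a smaller change in TET1-si cells.

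The promoters of these genes are shown because the lists differ in short strings that the selection did not use. E2F strings (TTTCCCGC, TTTGGCGC or TTTCGCGC, either strand) stood in 20 of 35 windows of replication genes (57.1%) and in 3 of 38 of mitosis genes (7.89%), against 4.72% of tested protein-coding genes. The string of the cell cycle genes homology region (CHR, TTTGAA or TTCGAA, either strand) stood in 3 of 35 (8.57%) and in 31 of 38 (81.6%), against 10.5%. The CCAAT string stood in 22 of 35 and 30 of 38, against 36.4%. Among all protein-coding genes that were lower in H-si, 11.8% of 1027 windows held an E2F string, 22.4% the CHR string and 50.1% CCAAT, and among those that were higher 2.22%, 9.73% and 29.9% of 1172. Mean GC content of the windows was 65.7% in the replication and 60.5% in the mitosis list, 64.5% in all lower and 63.9% in all higher genes, and its part in these shares was not tested. A match describes the letters in the window only. Within the same limits on printing, replication and mitosis genes with the largest changes and a match are shown. They are GINS2 and CDC6 with the E2F string in capitals and SPC25 with the CHR string in capitals. The match in GINS2 begins at position -31 and that in CDC6 at position 7, counted from 0 at the start site.
GINS2, chr16:85722511-85722810, minus strand: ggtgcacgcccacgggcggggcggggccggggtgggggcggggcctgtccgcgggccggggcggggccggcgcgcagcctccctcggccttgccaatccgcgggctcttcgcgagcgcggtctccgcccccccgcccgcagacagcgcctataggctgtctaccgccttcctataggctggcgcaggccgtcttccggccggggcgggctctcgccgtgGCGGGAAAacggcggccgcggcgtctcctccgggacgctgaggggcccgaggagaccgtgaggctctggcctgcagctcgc
CDC6, chr17:38443881-38444180, plus strand: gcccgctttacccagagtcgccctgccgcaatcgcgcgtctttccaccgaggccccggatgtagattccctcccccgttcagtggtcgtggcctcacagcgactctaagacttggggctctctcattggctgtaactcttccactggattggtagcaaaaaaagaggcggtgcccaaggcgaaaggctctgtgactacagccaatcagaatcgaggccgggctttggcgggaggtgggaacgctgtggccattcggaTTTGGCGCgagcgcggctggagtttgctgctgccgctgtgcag
SPC25, chr2:169746891-169747190, minus strand: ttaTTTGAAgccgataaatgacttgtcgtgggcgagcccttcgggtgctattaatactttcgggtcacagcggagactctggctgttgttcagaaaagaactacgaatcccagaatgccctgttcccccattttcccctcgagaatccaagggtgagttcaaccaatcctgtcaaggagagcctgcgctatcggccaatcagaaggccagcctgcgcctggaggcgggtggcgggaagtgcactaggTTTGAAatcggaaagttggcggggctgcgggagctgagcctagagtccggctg

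Messages of ribosome biogenesis genes were lower in hypoxia in both kinds of cell. Of 36 ribosome biogenesis genes 25 were lower in TET1-si and 26 in scrambled cells, with medians of -1.23 and -1.13, and all 36 were below 0 in each. RRS1, an assembly factor of the large subunit, was 51.6, 13.9, 37.2 and 9.05 (4.11-fold lower in TET1-si, 3.63 to 4.67, and 3.71-fold in scrambled cells, 3.36 to 4.10). The abundant nucleolar proteins NCL (862, 363, 731 and 289) and NPM1 (4852, 2522, 4051 and 1893) were lower too. The structural proteins of the ribosome were not, as 0 of 43 cytosolic ribosomal protein genes reached 2-fold in either direction (median -0.17), a median that came nearer to 0 under TPM. ODC1, the first enzyme of polyamine synthesis, was 89.4, 17.6, 63.5 and 10.7, a fall of like size in both cell types, and the polyamine-degrading enzyme SAT1 went from 102 to 300 in TET1-si cells. MYC, which regulates many of these genes, went from 40.6 to 28.5 (change -0.51), and in scrambled cells from 52.8 to 54.8. MXI1 and MXD4, MYC antagonists, were higher in TET1-si cells (3.29 to 17.2 and 5.89 to 17.2).

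Gene lists of nucleotide, protein and amino acid supply held more lower than higher genes in TET1-si cells. Of 20 genes of purine and pyrimidine synthesis 11 were lower in TET1-si cells (median -1.11) and 3 in scrambled cells (median -0.70). CTPS1, the CTP synthase, went from 184 to 48.1, against 248 to 155. PAICS, a purine enzyme, went from 164 to 47.6 and is listed at 0 in H-scr against 176 in N-scr. An exact 0 for so abundant a gene may be a failed estimate, and PAICS is counted among the 3. Of 20 heat shock chaperones 6 were lower and 1 higher (median -0.92, and -0.91 in scrambled cells), with the mitochondrial chaperonin HSPD1 going from 621 to 235 and the small chaperone HSPB1 from 96.2 to 194. Of 20 cytosolic tRNA synthetases 7 were lower (median -0.74), led by FARSB (46.5 to 11.004), and 5 in scrambled cells (median -0.45). In the integrated stress response 6 of 21 genes were lower and 2 higher (median -0.34), against 3 lower and 5 higher in scrambled cells (median 0.22). The serine synthesis genes PSAT1 (44.01 to 7.25) and PHGDH (120 to 58.6) and the asparagine synthetase ASNS (66.5 to 24.1) were lower, while the transcription factor ATF4 had a change of -0.40.

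**Figure D5:**
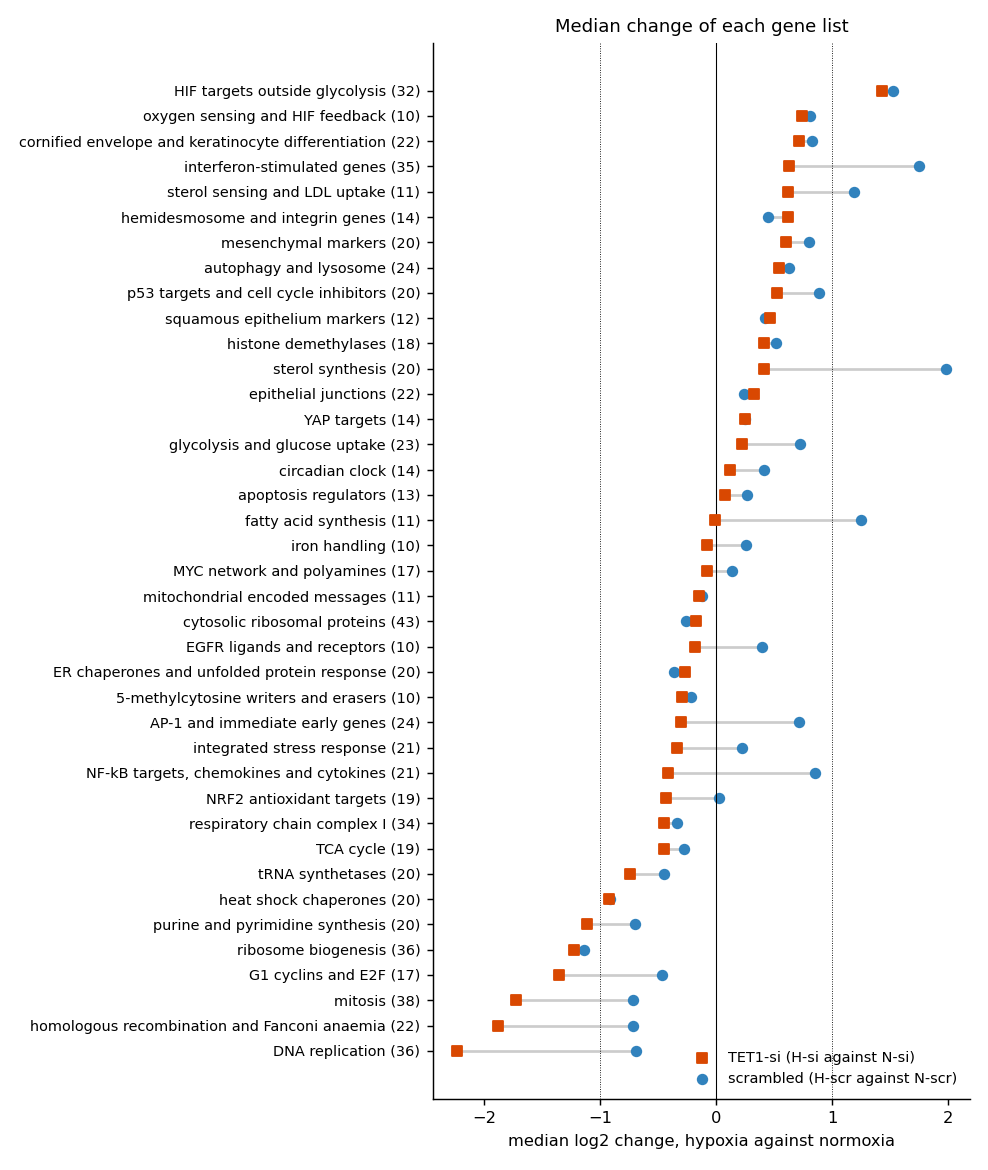
Median log2 change in hypoxia (horizontal) of 39 gene lists with at least 10 tested genes (number of genes in brackets), in TET1-si cells (squares) and scrambled cells (circles), dotted lines at 2-fold. The squares lie left of the circles for the cell cycle, sterol, interferon and NF-kB lists, and close to them for ribosome biogenesis (-1.23 and -1.13) and HIF targets (1.43 and 1.52).

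Cholesterol genes, which cells raise through SREBP when sterols run low, were higher in hypoxia in scrambled cells and much less so in TET1-si cells. Of 20 sterol synthesis genes 2 were higher in TET1-si (median 0.41) and 19 in scrambled cells (median 1.98). All 20 changes were smaller in TET1-si. Over all tested genes 11.9% were higher in TET1-si and 12.5% in scrambled cells, and the 2 of 20 is near the former. The summed FPKM of the 20 genes was 1375, 5358, 951 and 1174. The 2 were LSS, which closes the sterol ring (15.7, 208, 11.9 and 44.2, 3.73-fold in TET1-si, 3.51 to 3.97), and TM7SF2 (2.40, 44.01, 5.75 and 19.5). FDPS, which makes farnesyl diphosphate, was 154, 623, 125 and 97.5, a change of -0.36 in TET1-si and 2.01 in scrambled cells. It shares its locus with other transcripts, and strand was not stated to be kept. SQLE, the squalene epoxidase, was 141, 516, 83.3 and 131. INSIG1, which retains SREBP in the endoplasmic reticulum, was 23.7, 172, 14.7 and 40.7 (2.76-fold in TET1-si, 2.56 to 2.98, and 7.26-fold in scrambled cells, 6.88 to 7.68). Other genes of sterol sensing gave 3 higher of 11 in TET1-si, among them INSIG1 and STARD4 (5.34 to 18.4), and 6 in scrambled cells. In fatty acid synthesis only the desaturase SCD was higher of 11 genes (14.4 to 42.2), against 6 in scrambled cells. The median of that list, -0.01, turned positive under TPM and upper-quartile scaling. ACSS2, which activates acetate, went from 28.2 to 53.5 in TET1-si and from 10.0 to 286 in scrambled cells. APOC1, an apolipoprotein, was 5.09, 13.9, 1.36 and 1.84, with about 10 and 12 reads behind the TET1-si values. A sterol element string (TCACNCCAC, N being any base, either strand) was also searched in the promoter windows. It stood in 0 of 20 windows of the sterol synthesis list, against 1.16% of tested protein-coding genes.

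Interferon-stimulated genes, which serve antiviral defence, gave 13 higher and 1 lower of 35 in TET1-si cells (median 0.63) and 34 higher and 0 lower in scrambled cells (median 1.75). H-scr was the highest library for 32 of the 35. OAS1, which senses double-stranded RNA, was 19.9, 218, 20.3 and 43.3 (2.14-fold in TET1-si, 1.95 to 2.34, and 10.95-fold in scrambled cells, 10.1 to 11.9). The antiviral GTPase MX1 was 7.24, 74.6, 10.5 and 23.3. IFI27 was 46.1, 479, 17.4 and 60.7. IRF9, the DNA-binding subunit of the interferon-activated complex, changed alike in both pairs (75.2 to 245 and 33.6 to 115). OAS3 was 32.0, 100, 31.1 and 14.6, so that hypoxia went with a 2.13-fold lower level (2.02 to 2.24) in TET1-si and a higher one in scrambled cells. The interferon response string, GAAA repeated after 2 bases of any kind, was searched on either strand. It stood in 22 of 35 windows (62.9%), against 2.88% of tested protein-coding genes. These windows had a mean GC content of 53.3%, against 65.9%. IFI27 is shown, with the string in capitals, as the member with the largest change and a match.
IFI27, chr14:94576911-94577210, plus strand: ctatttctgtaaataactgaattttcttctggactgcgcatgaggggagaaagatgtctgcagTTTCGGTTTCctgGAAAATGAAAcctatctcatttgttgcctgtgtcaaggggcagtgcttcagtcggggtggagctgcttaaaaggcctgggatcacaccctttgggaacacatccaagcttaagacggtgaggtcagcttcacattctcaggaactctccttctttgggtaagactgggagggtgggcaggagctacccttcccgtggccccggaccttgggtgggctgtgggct

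No member of the inflammatory and growth-factor lists reached 2-fold upward in TET1-si cells, and some were lower. Of 21 NF-kB targets, chemokines and cytokines 0 were higher and 6 lower (median -0.42), where scrambled cells had 6 higher and 1 lower (median 0.85), and all 21 changes were smaller in TET1-si. TNFAIP3, a feedback inhibitor of NF-kB, was 49.7, 96.7, 12.2 and 5.76. The cytokine IL6 was 3.51, 6.83, 7.01 and 3.13. Of 24 AP-1 and immediate early genes 0 were higher and 5 lower (median -0.31), against 10 and 1 (median 0.71). FOSL1, an AP-1 subunit of proliferating epithelium, was 88.7, 43.97, 106 and 18.1 (5.85-fold lower in TET1-si, 5.37 to 6.38), and ETV5, a target of the MAPK pathway, 2.93, 5.51, 16.1 and 3.06. The EGFR ligands AREG (5.87 to 1.94), EREG (41.2 to 15.9) and TGFA (19.0 to 7.58) were the 3 lower genes of 10 in their list, and the receptors EGFR and ERBB2 had changes of 0.78 and 0.89, short of the 2-fold line. In scrambled cells 0 of the 10 were called.

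Genes of keratinocyte differentiation and adhesion were more often higher than lower, as were the tested genes as a whole. Over all tested genes 11.9% were higher and 8.19% lower in TET1-si cells, and 12.5% and 3.85% in scrambled cells. Of the 40 genes of the cornified envelope list 22 passed the filter, of which 10 were higher and 0 lower (median 0.71), against 7 higher and 1 lower in scrambled cells (median 0.83). TGM1, the transglutaminase that cross-links the envelope, was 7.89, 39.6, 2.13 and 13.5 (6.35-fold in TET1-si, 5.27 to 7.68). CERS3, which makes epidermal ceramides, went from 0.0332 to 2.74 on about 3 and 214 reads, and the loricrin gene LOR was listed at 0 throughout. Of 22 junction genes 4 were higher in TET1-si (median 0.33) and 3 in scrambled cells (median 0.24). The 4 were the desmosomal PKP1 (4.62 to 20.2) and DSG3 (4.88 to 11.05) and the tight junction genes CLDN1 (108 to 338) and TJP3 (2.40 to 20.3). The cadherin gene CDH3, also of this list, was left out because its identifier stood on more than 1 row. Its most abundant row read 209.6, 11.6, 161 and 10.1, far lower in hypoxia in both kinds of cell. Its level over all its rows was not assessed. Of 14 hemidesmosome and integrin genes 4 were higher, among them ITGB4 (87.6 to 202) and COL17A1 (26.1 to 60.3), against 0 in scrambled cells, where these went from 121 to 188 and from 77.3 to 147. Changes of 12 of the 14 were above 0 in each kind of cell, with medians of 0.62 in TET1-si and 0.45 in scrambled cells. Of the 12 epithelial markers checked above 5 were higher and 0 lower in TET1-si cells (median 0.46), and 1 was higher in scrambled cells (median 0.42). In TET1-si cells 8 changes were above 0 and 4 below, the lowest being KRT18 at -0.42. KRT5 and KRT17, 2 of the 5, were 2.73-fold (2.69 to 2.77) and 2.33-fold (2.30 to 2.37) higher in H-si than in N-si.

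The study asked about epithelial-mesenchymal transition, the loss of epithelial and gain of mesenchymal features. CDH1, E-cadherin, was 179, 292, 267 and 399, a change of 0.58 in TET1-si cells (1.49-fold, 1.47 to 1.52) and 0.70 in scrambled cells. JUP, plakoglobin, was 83.7, 138, 119 and 166, and its locus overlaps KRT17. CDH2, N-cadherin, was 10.8, 4.39, 22.9 and 7.72, lower in hypoxia in both (2.97-fold in TET1-si, 2.72 to 3.25). VIM, the vimentin gene, and SNAI1 were below the filter, with VIM at 0.151 and 0.0816 and SNAI1 at 0.857 and 0.542 in N-si and H-si. TWIST1 was 5.83, 3.63, 1.60 and 1.46, a change of -0.12 in TET1-si that became 0.01 under TPM. Of the 10 transcription factors of this transition listed, 4 passed the filter, and 0 were higher or lower. Of 20 tested mesenchymal genes 7 were higher and 1 lower (CDH2) in TET1-si cells, with a median of 0.60. The higher ones were S100A4, TGFBI (25.998 to 93.9), COL5A1, COL1A1, COL6A1, ITGAV and ITGA5. Apart from the calcium-binding S100A4 they encode matrix proteins and integrin receptors. In scrambled cells 8 of the 20 were higher and 1 lower, with a median of 0.80. FN1, fibronectin, went from 4.24 to 2.32, against 12.5 to 19.0 in scrambled cells.

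Of the 15 protein-coding genes with the largest falls, again among those averaging 5 or more, MCM10, RRM2, ORC1, GINS2 and CDC6 are in the replication list and SPC25 in the mitosis list. The others included DSCC1, part of a clamp loader that serves sister chromatid cohesion (57.0 to 7.04, 8.09-fold lower, 7.20 to 9.13). Also among them were DTL (35.8 to 5.44), the kinetochore genes SKA3 (53.8 to 8.44) and CENPH (34.3 to 5.40), and C11orf82 (31.2 to 4.33). PSAT1 was given above. MICB, a stress-induced ligand recognised by natural killer cells, went from 122 to 15.6 in TET1-si cells, 7.87-fold lower (7.30 to 8.49), and from 63.7 to 68.5 in scrambled cells. GAL, which encodes the neuropeptide galanin, was lower in both, 27.2 to 3.09 in TET1-si and 61.3 to 9.08 in scrambled cells. CHURC1-FNTB had the largest change (10.6 to 0.814), but it is a readthrough transcript over CHURC1 and FNTB, so its level is uncertain. Among genes averaging 100 or more the largest falls were TUBB (766 to 156) and TUBA1B (746 to 158), tubulins with near-identical copies whose reads may be shared, and KIAA0101 (171 to 35.2), BIRC5 and CENPN (226 to 49.3). Over CENPN the gene CMC2 overlaps and went from 108 to 43.6.

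Side by side, 977 genes were higher in hypoxia in both cell types. This is 56.1% of those higher in TET1-si and 53.6% of those higher in scrambled cells. Over all tested genes, 11.9% were higher in TET1-si and 12.5% in scrambled cells. Another 319 were lower in both, 26.7% of the lower genes of TET1-si and 56.8% of those of scrambled cells. Over all tested genes, 8.19% were lower in TET1-si and 3.85% in scrambled cells. The 26.7% is limited by the smaller number of lower genes in scrambled cells, 562 against 1195. Of the 1195 genes lower in TET1-si cells 1077 (90.1%) had a change below 0 in scrambled cells, where their median was -0.74 against -1.38 in TET1-si. The scrambled median over all tested genes was 0.055. The higher genes had medians of 1.41 in TET1-si and 1.12 in scrambled cells. Both sets were chosen by their TET1-si change, which sets the larger size of their TET1-si medians. Genes at least 2-fold changed in opposite directions were few, 22 higher in TET1-si and lower in scrambled cells and 30 the reverse. The difference between the responses was not tested for any gene, because each response rests on 1 library a side.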

How the data were processed

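RNA-Seq of FaDu cells was available for 4 libraries, 1 for each oxygen and knockdown state. Per the labels and the study's methods, TruSeq mRNA libraries were read on a HiSeq 2000, and the authors obtained FPKM values per gene with TopHat and Cufflinks on hg19 with Ensembl annotation. Versions and filters are not given in the sources used here, and the labels and methods differ on single or paired ends. The deposited FPKM values were used as they stand. Every sample column was mapped to a label, and 0 columns were left out.

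Rows whose gene ID stood on more than 1 row (232 rows, among them HIF1A and CDH3) were left out, as were loci under 300 bp and genes averaging an FPKM under 1. Changes were computed on log2(FPKM + 0.1). With 1 library per group no test was run. Depth was recovered from the 6344 genes with 1 exon, whose low values were whole numbers of reads in 95.3% to 96.1% of cases (tolerance 0.05). Approximate reads per gene gave exact Clopper-Pearson 95% intervals, which cover counting error only. Gene types, transcript lengths and start sites came from GENCODE v44lift37, which held 96.5% of the genes. Strand was not stated to be kept.

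The genes named were TET1 and the genes of the study's expression assays, the 15 largest rises and falls among protein-coding genes averaging an FPKM of 5 or more in the TET1-si libraries, the 5 among those averaging 100 or more, the largest opposite responses, and list members at the extremes or needed for their roles. The genes and the 44 lists were chosen with earlier results of these data known. Calculations were tested on simulated data and run in Python 3.11.15 with numpy 2.4.6, pandas 2.3.3, scipy 1.17.1 and matplotlib 3.10.9. Some named genes and 1 promoter window are not reported here. Alternatives in pseudocount, filter, scaling, gene type and fold were tried.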

Additional observations from a re-analysis of the deposited data

Results flagged for a closer look

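A set of genes changed at least 2-fold in opposite directions in the TET1-si and scrambled cells. Each difference below is the log2 change of the TET1-si cells minus the log2 change of the scrambled cells, and it was not tested, since every response rests on 1 library a side. RAB3IL1, an exchange factor for RAB proteins, had a difference of 3.38. Its FPKM went from 1.17 to 5.58 in TET1-si cells and from 17.1 to 7.31 in scrambled cells. The noncoding gene RP11-66B24.1 had a difference of 3.19 (4.84 to 11.8, and 2.80 to 0.669), and its locus overlaps the much more abundant ALDH1A3, from which reads could be shared.

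The opposite pattern, lower in hypoxic TET1-si and higher in hypoxic scrambled cells, was found in LTB, SAA1, IL32 and IL8, which encode secreted or surface inflammatory proteins, and in TMEM97. LTB, lymphotoxin beta, had a difference of -3.13 (2.03 to 0.446 on about 34 and 7 reads, and 11.6 to 26.05). SAA1, an acute phase protein, had one of -3.14 (13.1 to 5.64, and 4.12 to 16.2). IL32, a cytokine, had one of -2.49 (5.50 to 2.16, and 6.21 to 14.2), and IL8, a neutrophil chemokine, one of -2.46 (2.74 to 1.17, and 16.999 to 41.8). TMEM97, a sterol-regulated membrane protein, had a difference of -2.99 (17.8 to 5.37, and 46.4 to 113). These genes were named for their opposite directions, so the directions are a description.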

How the results depend on the processing

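No paired analysis was possible because each group has 1 library, and for the same reason no library could be left out. The share of higher genes among those called, 59.3% in the deposited values, was 54.83% with a pseudocount of 1, 67.79% without a filter on expression, 44.13% at a mean FPKM of at least 5, 69.97% as TPM, 68.25% under upper-quartile scaling, 53.45% in protein-coding genes, 55.55% at 1.5-fold and 67.08% at 4-fold. Without a filter 4563 genes were higher and 2168 lower, at a mean of at least 5 there were 733 and 928, at 1.5-fold 3413 and 2731, and at 4-fold 324 and 159. Leaving out genes listed at 0 in a TET1-si library, an alternative chosen after seeing the data, gave 1723 and 1185. The median change of the fibroblast list, which is COL1A1 alone, was 1.3439 with a pseudocount of 1, 1.4046 with 0.01, 1.3918 under median-of-ratios scaling, 1.5365 as TPM and 1.5118 under upper-quartile scaling. That of cytosolic ribosomal proteins was -0.0329 and -0.0558, and that of immune cell markers 0.1518 and 0.1287, as TPM and under upper-quartile scaling. The medians of the MYC and polyamine list and of iron handling turned positive under the same scalings (0.06 and 0.04 for each). At a mean of at least 5 the EGFR list turned to 0.12 and the apoptosis list to -0.06. In 255 combinations of list and setting, these turns of sign included, the median stayed within its nominal 95% interval over the genes of the list. That interval comes from the spread of the genes in a list, which are not replicates. It is wide where the genes differ, has no width for COL1A1 alone, and does not measure whether a sign is stable. The cause of the moves and turns of sign was not tested.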

Other observations

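Most genes of the TCA cycle and complex I had changes below 0 in TET1-si cells (15 of 19 and 32 of 34) and in scrambled cells (15 of 19 and 33 of 34), and few reached 2-fold. Of 19 genes of the TCA cycle 2 were lower and 0 higher (median -0.45), namely the citrate synthase CS (FPKM 90.6 to 39.8) and the fumarase FH (131 to 64.3). Of 34 subunits of complex I 2 were lower and 0 higher (median -0.45), NDUFA6 (131 to 62.1) and NDUFB5 (406 to 196). In scrambled cells 0 of the 19 and 0 of the 34 were called, with medians of -0.28 and -0.33. The 2 of 19 and 2 of 34 lower genes stand against 8.19% of all tested genes in TET1-si cells. The 11 messages encoded by mitochondrial DNA had a median of -0.15, with 0 called. Metallothioneins, which bind zinc and copper, were lower in both cell types. MT1E went from 361 to 94.9, MT1X from 78.7 to 34.9 and MT2A from 713 to 240, and of the 6 tested 3 were lower in TET1-si and 4 in scrambled cells.

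Of 20 p53 targets and cell cycle inhibitors 6 were higher and 1 lower (median 0.53, and 0.88 in scrambled cells). TP53INP1, a p53-inducible regulator of autophagy, went from 0.338 to 5.36, the atypical cyclin CCNG2 from 6.46 to 25.6 and the inhibitor CDKN1A from 9.35 to 18.9, while GADD45A went from 27.5 to 11.8. Of 24 autophagy and lysosome genes 5 were higher and 0 lower (median 0.54), among them GABARAPL1 (61.9 to 141), ULK1, the kinase that starts autophagy (29.5 to 63.8), and the protease CTSD (83.2 to 176). Of 18 histone demethylases 3 were higher, KDM3A, KDM5B and KDM4C (47.6 to 97.3), and 0 lower, against 5 higher in scrambled cells. The TET1-si share is near the 11.9% of all tested genes, while the 5 in scrambled cells stand against 12.5%. TET2 and TET3, the paralogs of TET1, had changes of 0.72 (2.82 to 4.73) and -0.01 (5.58 to 5.52). Of 13 apoptosis regulators the BH3-only genes BMF (0.867 to 3.50) and BBC3 (1.29 to 3.41) were higher, a share that is also near 11.9%, against 3 of 13 in scrambled cells.

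Of 19 NRF2 targets 3 were lower and 1 higher (median -0.43), of 20 ER chaperones 1 was lower (SDF2L1, 20.5 to 9.06), of 14 YAP targets 2 were higher (AMOTL1 and AJUBA), of 14 clock genes 2 were higher (DBP and RORA) and 1 lower (CRY1), and of 10 genes of iron handling 0 were called. In scrambled cells 1 of the 14 YAP targets and 3 of the 14 clock genes were higher. These counts are small, and they stand against 11.9% higher and 8.19% lower over all tested genes in TET1-si cells.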
